A study of Homo sapiens with 4 samples.

Results

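The receptor tyrosine kinases are the cell-surface receptors through which growth factors, ephrins and matrix proteins reach the cell. A list of 57 human genes of this class was followed, each by the probe set with the highest mean over the arrays. Of these, 49 had a probe set in the value table, 48 named by the platform annotation and PDGFRA only by the study's supplementary gene table, against 14884 genes with a named probe set in the whole table. PDGFRB, EPHB2, ERBB2, TEK, NTRK2, NTRK3, MUSK and ROS1 had no named probe set and were not analysed here. Expression was measured on 4 arrays, 2 of Baz2B-KO and 2 of the Hap1 parental control. Hap1 cells are human, adherent and carry close to a single set of chromosomes, and they were obtained from the leukaemia line KBM-7. Baz2B-KO is a Hap1 line in which CRISPR-Cas9 removed a short stretch of a coding exon of BAZ2B, a subunit of chromatin remodeling complexes. No probe set named BAZ2B was found in the tables read, so the targeted gene itself was not checked here. Both lines grew in the same medium with serum and the labels name no agent given to either.

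A receptor tyrosine kinase binds its ligand outside the cell, pairs with a second receptor and phosphorylates tyrosines on its partner and on adaptor proteins, which pass the signal to RAS, PI3-kinase and phospholipase C. The families differ in what they bind. PDGF, VEGF, FGF, insulin and ErbB receptors take up soluble factors, whereas Eph receptors bind ephrins on the surface of a neighbouring cell and the discoidin domain receptors bind collagen. Several members, such as ERBB3, EPHA10, EPHB6, PTK7 and RYK, have little or no kinase activity of their own and signal through partners.

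Values are log2 intensities, in which 1 unit is a 2-fold difference in signal, and 3.5 was the limit under which the methods of the study discard a probe set. Probe sets above this limit in at least 2 arrays were tested with limma, using Benjamini-Hochberg adjustment over all 11235 such probe sets that carry a gene name and a threshold of 0.05. PDGFRA was tested as 1 probe set added to these. The arrays resembled each other closely, with correlations of 0.983 to 0.992 over the tested probe sets and median absolute differences of 0.13 between the Baz2B-KO arrays and 0.129 between the control arrays over the 38 tested receptors, against 0.115 and 0.148 over all tested probe sets. Of 14 blood cell markers, 9 had a probe set, and 7 of these lay above the limit in both Baz2B-KO arrays and 6 in both controls. For epithelial markers the count was 5 of 7, for endothelial markers 2 of 5 and for fibroblast markers 1 of 4 in either line. Of all named probe sets, 67.7% lay above the limit in both Baz2B-KO arrays and 67.1% in both controls. The blood cell genes CD34 and MPO did not exceed the limit in 2 arrays. None of the 13 markers tested passed in either direction, where 0.668% of all tested probe sets did (limma). At an unadjusted p under 0.05 there were 3 higher and 0 lower, where 5.38% of all tested probe sets were higher and 4.47% lower (limma). In bulk RNA, fewer cells that transcribe a gene and less RNA per cell cannot be told apart. The source of the replicate arrays is not given, so a p-value reflects how far these arrays vary, possibly for technical reasons only. Both lines were handled apart from each other. Because Baz2B-KO is 1 edited line set against 1 parental line, the loss of Baz2B and other differences between the lines cannot be told apart.

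The limit of 3.5 lay close to the median intensity of every array (3.53 to 3.55). Of the 49 receptor genes, 39 lay above the limit in both Baz2B-KO arrays, INSRR in 1 of them and 9 in neither, where 67.7% of all named probe sets lay above it in both. In the Hap1 control, 37 lay above it in both arrays, ALK in 1 and 11 in neither, where 67.1% of all named probe sets lay above it in both. The lines differed in this count at EPHA8, ALK and INSRR, all close to the limit, and no receptor above the limit in both controls lay under it in a Baz2B-KO array. Intensities of different probe sets depend on their probes and give no order of abundance between genes.

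**Figure D1:**
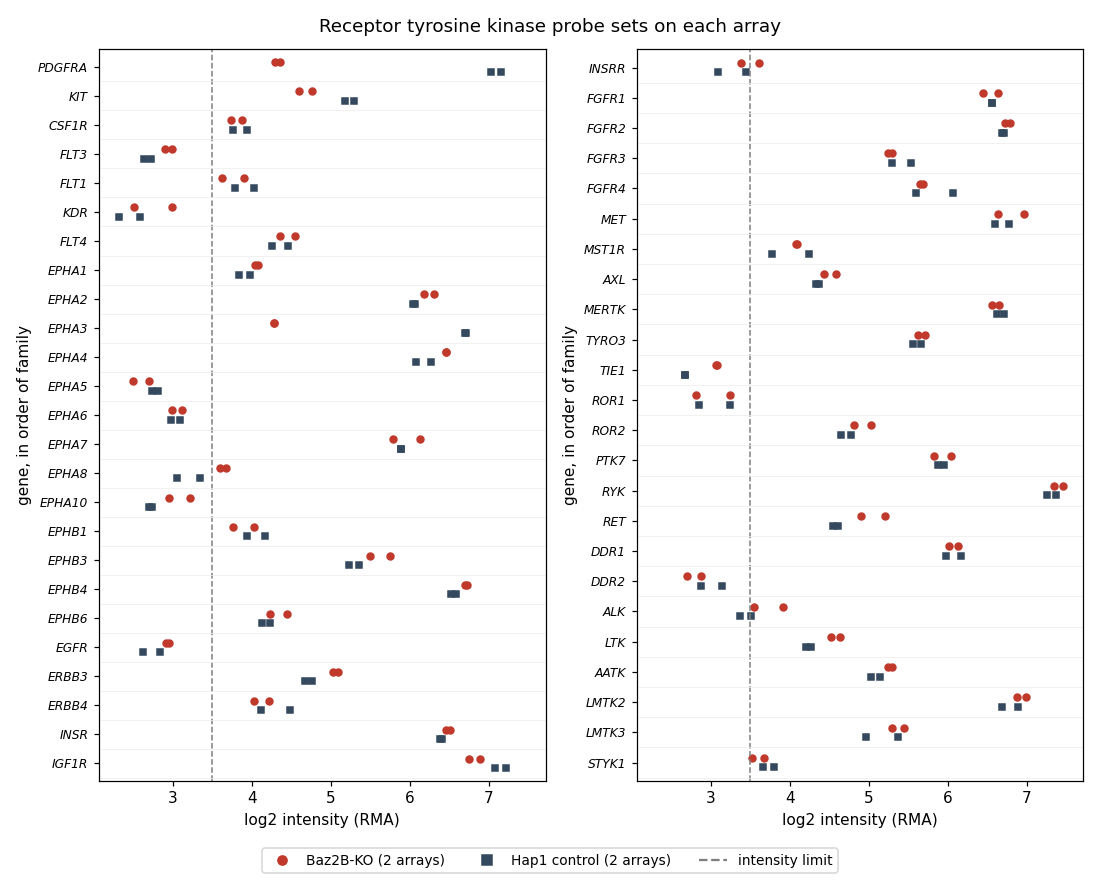
Log2 intensity (horizontal axis) of the 49 receptor genes on each array, in order of family (vertical axis). Circles are the 2 Baz2B-KO arrays, squares the 2 Hap1 control arrays, and the dashed line is the limit of 3.5. PDGFRA at 4.35 and 4.29 in Baz2B-KO and EPHA3 at 4.28 in both Baz2B-KO arrays stand far to the left of their control values, and for most other genes the 4 values lie close together.

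Both Baz2B-KO arrays were above 6 for 11 of the 13 receptors that were above 6 in both control arrays, the exceptions being PDGFRA and EPHA3. Because the 13 were chosen by their control values, this count can show losses in Baz2B-KO but not gains. The 11 span several families. They comprise the Eph receptors EPHA2, EPHA4 and EPHB4, the insulin receptor INSR and the IGF receptor IGF1R, FGFR1 and FGFR2, the hepatocyte growth factor receptor MET, the GAS6 and protein S receptor MERTK, the WNT-binding pseudokinase RYK and the endosomal kinase LMTK2. A further 10 receptors did not pass the filter and were not tested. These were FLT3, KDR, EPHA5, EPHA6, EPHA10, EGFR, INSRR, TIE1, ROR1 and DDR2, with intensities between 2.32 and 3.61 over the 4 arrays. EGFR, the founding ErbB receptor, had 2.91 and 2.95 in Baz2B-KO and 2.62 and 2.83 in the control. TIE1, an endothelial receptor, had 3.07 and 3.08 in Baz2B-KO and 2.67 in both controls, without reaching the limit.

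Of the 38 receptors named by the platform annotation and tested, 1 was lower in Baz2B-KO, EPHA3, where 0.392% of all tested probe sets were lower, and 0 were higher, where 0.276% were higher (limma). In either direction 0.668% of all tested probe sets passed. PDGFRA, tested outside this count, was also lower. The other 37 did not pass the test, with adjusted p between 0.137 and 0.995 from limma. At an unadjusted p under 0.05 there were 8 of 38, 5 higher and 3 lower, where 9.85% of all tested probe sets met this limit in either direction, 5.38% as higher and 4.47% as lower. The median log2 fold change of the 38 was 0.085, against 0.017 over all tested probe sets, and 25 of the 38 were above 0, as were 54.8% of all tested. In 15 of the 38 both Baz2B-KO arrays lay above both controls and in 4 they lay below, against 21.9% and 15.9% of all tested probe sets, and in 19 the lines overlapped. These counts and the median include EPHA8 and ALK, which passed the filter through both Baz2B-KO arrays, with 0 control arrays above the limit for EPHA8 and 1 for ALK, so that the filter had a part in their being counted as higher. EPHA8 is among the 5 and the 15, and ALK among the 15.

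**Figure D2:**
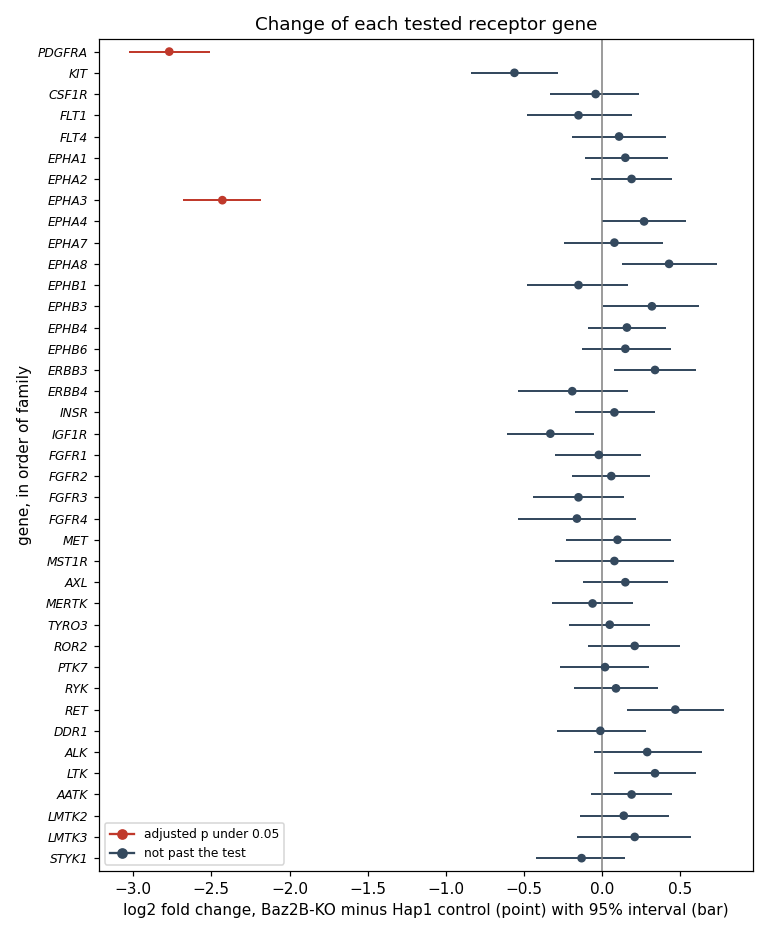
Log2 fold change of Baz2B-KO minus Hap1 control (horizontal axis) for the 38 tested receptors and PDGFRA, in order of family (vertical axis). Points are estimates from limma with n = 2 arrays per line, and bars are 95% intervals. PDGFRA at -2.77 and EPHA3 at -2.43 lie apart, and the intervals of all others stay between -0.84 and 0.78.

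For the receptors that did not pass, the intervals give the range of differences in signal that the spread of these arrays allows. All 37 of their 95% intervals, which are not adjusted for the number of genes, lay between -1 and 1 on the log2 scale, a 2-fold change either way, and 24 lay between -0.5 and 0.5. The standard errors of the 38 ranged from 0.106 to 0.163. These bounds are for the array signal, which compresses differences in transcript near the limit. They reflect how far these arrays vary, possibly for technical reasons only, so a larger difference between the lines is not excluded. The 37 include EPHA8 and ALK, where the filter had a part in their being counted as higher.

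PDGFRA encodes the receptor for PDGF-A, PDGF-C and other PDGF dimers, which drives growth and migration of mesenchymal cells. Its intensity was 4.35 and 4.29 in Baz2B-KO, against 7.15 and 7.03 in the control. The Baz2B-KO values lay above the limit, and the lines did not overlap. PDGFRA signal was 6.81-fold lower (log2 fold change -2.77, estimated with an SE, the standard error, of 0.112, 95% interval -3.03 to -2.51, adjusted p = 0.000246 from limma). None of the 11235 tested probe sets had a larger fall or a lower p. The supplementary table that names this probe set was held only for its rows of lowest p, so the adjusted p is not that of a gene chosen without its result.

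EPHA3 encodes an Eph receptor for ephrin-A ligands, with a role in cell repulsion and adhesion. It had 4.28 in each Baz2B-KO array, against 6.71 and 6.70 in the control. The replicate arrays of each line were nearly equal, and the Baz2B-KO values stayed above the limit. The signal was 5.38-fold lower, a log2 fold change of -2.43 (SE 0.106, 95% interval -2.68 to -2.18, adjusted p = 0.000492 from limma). PDGFRA was adjusted as an addition to the probe sets that include EPHA3, and EPHA3 was adjusted without PDGFRA. Their adjusted p-values are therefore not compared. In the fits of 3 arrays the log2 fold change of EPHA3 was -2.43 without either control array. EPHA3 did not pass the test in those fits, which leave 1 control array, so they give the size of the change only.

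The promoter windows of both receptors, and of KIT, which lies next to PDGFRA and was the next lowest receptor, are shown because these were the members with the lowest fold changes. Each window holds the 250 bases before a start given by RefSeq on GRCh38.p14. PDGFRA has 2 such starts, at chr4:54229043-54229292 and chr4:54233710-54233959, EPHA3 has 1 at chr3:89107371-89107620 and KIT has 1 at chr4:54657707-54657956, all on the plus strand. Capitals mark matches to the motifs searched.
PDGFRA start 1: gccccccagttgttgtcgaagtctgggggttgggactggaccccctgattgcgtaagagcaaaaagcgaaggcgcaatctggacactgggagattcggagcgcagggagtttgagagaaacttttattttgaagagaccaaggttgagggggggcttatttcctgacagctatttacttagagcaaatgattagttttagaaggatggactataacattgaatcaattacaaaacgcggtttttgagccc
PDGFRA start 2: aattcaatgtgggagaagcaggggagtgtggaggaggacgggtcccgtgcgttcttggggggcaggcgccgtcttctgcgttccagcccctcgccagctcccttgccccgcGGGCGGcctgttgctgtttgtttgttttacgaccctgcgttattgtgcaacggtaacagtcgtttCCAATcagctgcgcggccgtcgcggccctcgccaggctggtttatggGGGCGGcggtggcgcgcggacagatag
EPHA3: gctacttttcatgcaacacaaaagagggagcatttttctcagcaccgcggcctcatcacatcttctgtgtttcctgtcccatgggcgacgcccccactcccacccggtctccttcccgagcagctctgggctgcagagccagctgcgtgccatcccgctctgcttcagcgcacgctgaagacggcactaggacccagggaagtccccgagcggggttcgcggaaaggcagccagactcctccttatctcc
KIT: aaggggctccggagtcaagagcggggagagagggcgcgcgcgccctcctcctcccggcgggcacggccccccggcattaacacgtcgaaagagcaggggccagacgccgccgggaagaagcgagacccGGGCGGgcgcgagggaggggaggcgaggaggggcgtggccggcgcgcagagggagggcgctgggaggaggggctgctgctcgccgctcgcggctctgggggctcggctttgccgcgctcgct

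All motifs were read on both strands. The core promoter motifs were TATAAA for the TATA box, then CCAAT for the box of that name, and GGGCGG for the GC box. The other motifs searched were TGACTCA for the AP-1 factors, next CACGTG for the E-box factors, then CCGGAAGT for the ETS factors and finally GGAATG for the TEAD factors. The second PDGFRA window held 2 GC boxes and 1 CCAAT box and the KIT window 1 GC box, and no match was found in the EPHA3 window or in the first PDGFRA window. Of 35116 windows of all genes, 42.6% held a GC box, 32% a CCAAT box, 11.9% the TEAD motif, 10.7% the TATA box, 6.34% the E-box, 4.2% the AP-1 motif and 3.42% the ETS motif. Of 83 windows of 51 listed receptors, 52 held a GC box and 28 a CCAAT box. The windows also differed in base composition. The share of G and C was 46.8% and 64% for the first and second PDGFRA starts, 61.2% for EPHA3 and 76.4% for KIT. In the same order they held 8, 25, 15 and 34 CpG dinucleotides. The medians were 58% and 11 over all windows, and 64.8% and 15 over the 83 receptor windows.

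KIT encodes the receptor for stem cell factor and belongs to the same family as PDGFRA. It had 4.76 and 4.59 in Baz2B-KO, against 5.29 and 5.18 in the control. The lines did not overlap, but the difference stayed short of the threshold (log2 fold change -0.56, SE 0.118, 95% interval -0.84 to -0.28, adjusted p = 0.137 from limma). Its interval does not reach that of PDGFRA. The other members of the family lay near or under the limit. The M-CSF receptor gene CSF1R had 3.87 and 3.74 in Baz2B-KO and 3.76 and 3.94 in the control, with overlap between the lines. FLT3, a receptor of blood progenitors, stayed under the limit at 2.99 and 2.90 in Baz2B-KO and 2.64 and 2.72 in the control. Of the VEGF receptor genes, FLT1 had 3.62 and 3.90 in Baz2B-KO and 3.79 and 4.03 in the control, and FLT4, the receptor of lymphatic endothelium, had 4.36 and 4.55 in Baz2B-KO and 4.25 and 4.45 in the control. Both overlapped between the lines, with log2 fold changes of -0.15 and 0.11.

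PDGFRA, KIT and KDR stand side by side on chromosome 4, which allowed the fall of PDGFRA to be set beside its surroundings. Among the 5 genes with a named probe set on either side of PDGFRA in the RefSeq gene order, 6 passed the filter. None was called, where 0.668% of all tested probe sets were, so that none is the usual count for so few genes. KIT was the lowest of them, and the other 5 lay between -0.19 and 0.02. CHIC2 and GSX2, on the side opposite to KIT, had log2 fold changes of -0.19 (95% interval -0.56 to 0.18) and -0.07 (95% interval -0.40 to 0.26). KDR, the main VEGF receptor of endothelium, stayed under the limit in all 4 arrays, at 2.51 and 2.99 in Baz2B-KO and 2.32 and 2.58 in the control. Of the 10 genes around EPHA3 on chromosome 3, 5 passed the filter, with log2 fold changes between -0.27 and 0.10. None was called, again beside 0.668% of all tested probe sets. PROS1, the next gene with a named probe set and a ligand gene of the TAM receptors, had 3.60 and 3.81 in Baz2B-KO and 3.94 and 4.0 in the control (log2 fold change -0.27, adjusted p = 0.548 from limma). Genes without a named probe set in these stretches were not analysed here.

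**Figure D3:**
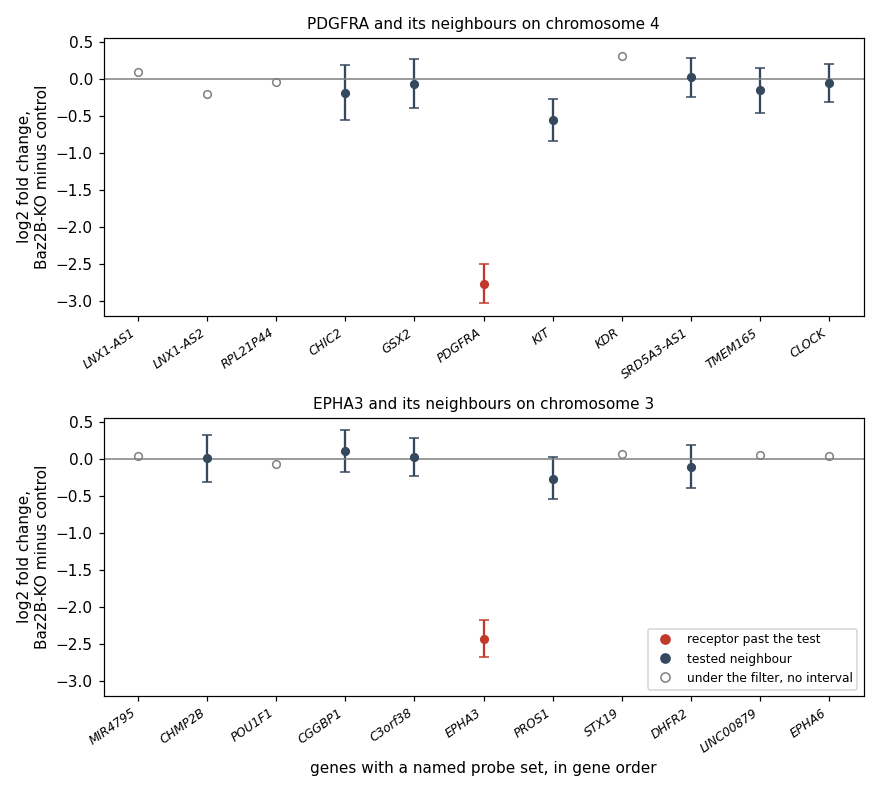
Log2 fold change of Baz2B-KO minus Hap1 control (vertical axis) for PDGFRA (upper panel) and EPHA3 (lower panel) and the 5 genes with a named probe set on each side, in gene order (horizontal axis). Filled points are tested genes with 95% intervals, and open points are differences of the means of genes under the filter. The fall is seen at PDGFRA (-2.77) and EPHA3 (-2.43), with KIT at -0.56 and the other tested neighbours between -0.27 and 0.10.

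Among the Eph receptors the fall was called for EPHA3. Of 6 A-class genes tested, EPHA3 was lower and 5 did not pass. All 5 had a log2 fold change above 0, as did 54.8% of all tested probe sets. The 5 include EPHA8, for which the filter had a part in this sign. EPHA4, which binds ephrins of both classes, had 6.45 in each Baz2B-KO array, against 6.08 and 6.27 in the control (log2 fold change 0.27, adjusted p = 0.515 from limma). EPHA2 had 6.30 and 6.18 in Baz2B-KO and 6.04 and 6.06 in the control, a log2 fold change of 0.19. In both genes the Baz2B-KO arrays lay above the controls by less than the test could call. EPHA8 had 3.59 and 3.67 in Baz2B-KO and, under the limit, 3.05 and 3.34 in the control (log2 fold change 0.43, adjusted p = 0.333 from limma). It entered the test only through its Baz2B-KO arrays, so these values are a description. EPHA7 had 6.12 and 5.79 in Baz2B-KO, around its control values of 5.89 and 5.88. EPHA1 had 4.08 and 4.04 in Baz2B-KO and 3.84 and 3.98 in the control. Neither passed. None of the 4 B-class genes passed. Among them EPHB3 had 5.75 and 5.49 in Baz2B-KO, against 5.23 and 5.36 in the control (log2 fold change 0.32, 95% interval 0.01 to 0.62, adjusted p = 0.495 from limma), and EPHB4, a receptor for ephrin-B2, had 6.70 and 6.72 in Baz2B-KO and 6.58 and 6.52 in the control. EPHB6, a pseudokinase, had a log2 fold change of 0.15 and EPHB1 one of -0.15. Under the limit, EPHA5 had 2.50 and 2.70 in Baz2B-KO and 2.73 and 2.81 in the control, EPHA10 had 2.95 and 3.22 in Baz2B-KO and 2.70 and 2.74 in the control, and EPHA6 lay between 2.97 and 3.12 in all 4 arrays.

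RET, the receptor for ligands of the GDNF family, had the highest log2 fold change of the tested receptors. It had 4.90 and 5.2 in Baz2B-KO, against 4.55 and 4.61 in the control. The Baz2B-KO arrays lay above both controls and differed more from each other than the controls did, and RET stayed short of the threshold (log2 fold change 0.47, SE 0.133, 95% interval 0.16 to 0.78, adjusted p = 0.286 from limma). ERBB3, which binds neuregulins and signals through ErbB partners, had 5.02 and 5.09 in Baz2B-KO and 4.76 and 4.67 in the control (log2 fold change 0.34, adjusted p = 0.364 from limma). ERBB4, another neuregulin receptor, had 4.02 and 4.21 in Baz2B-KO and 4.48 and 4.12 in the control, with overlap and a log2 fold change of -0.19. LTK, a receptor for the ALKAL ligands, had 4.52 and 4.63 in Baz2B-KO and 4.20 and 4.27 in the control (log2 fold change 0.34, adjusted p = 0.357 from limma). Its relative ALK, above the limit in both Baz2B-KO arrays and 1 control array, had a log2 fold change of 0.29. It had 3.55 and 3.91 in Baz2B-KO and 3.37 and 3.51 in the control.

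IGF1R, the receptor for insulin-like growth factors, had 6.74 and 6.89 in Baz2B-KO, against 7.22 and 7.07 in the control. All values were far above the limit and the lines did not overlap, but the difference did not pass (log2 fold change -0.33, 95% interval -0.61 to -0.05, adjusted p = 0.426 from limma). INSR, the insulin receptor, had 6.51 and 6.45 in Baz2B-KO and 6.38 and 6.41 in the control, a log2 fold change of 0.08.

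The 4 FGF receptors all passed the filter, and none passed the test, with log2 fold changes between -0.16 and 0.06. FGFR1 had 6.44 and 6.63 in Baz2B-KO and 6.56 in each control, and FGFR2 had 6.73 and 6.79 in Baz2B-KO and 6.71 and 6.69 in the control. For these 2 genes the 95% intervals ran from -0.30 to 0.25 and from -0.19 to 0.31. FGFR3 had 5.29 and 5.24 in Baz2B-KO and 5.29 and 5.54 in the control. FGFR4 had the largest standard error of the tested receptors (0.163), with 5.69 and 5.65 in Baz2B-KO and 5.60 and 6.07 in the control. MET had 6.96 and 6.64 in Baz2B-KO, against 6.78 and 6.60 in the control, and the related MST1R had a log2 fold change of 0.08 with overlap. Among the TAM receptors, which bind GAS6 and protein S, MERTK had 6.65 and 6.56 in Baz2B-KO and 6.71 and 6.62 in the control, TYRO3 had 5.62 and 5.71 in Baz2B-KO and 5.66 and 5.56 in the control, and AXL had 4.58 and 4.43 in Baz2B-KO and 4.33 and 4.37 in the control.

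RYK, PTK7 and ROR2, which take part in WNT signalling, did not pass the test. RYK had 7.46 and 7.34 in Baz2B-KO, against 7.37 and 7.25 in the control, and PTK7 had 5.82 and 6.04 in Baz2B-KO and 5.95 and 5.88 in the control. ROR2, a receptor for WNT5A, had 4.81 and 5.03 in Baz2B-KO and 4.78 and 4.65 in the control, a log2 fold change of 0.21 with a 95% interval of -0.09 to 0.50. The collagen receptor DDR1 had a log2 fold change of -0.01, with 6.13 and 6.01 in Baz2B-KO and 5.98 and 6.17 in the control, and its 4 probe sets gave values between -0.01 and 0.03. Of the kinases grouped as LMTK and STYK1, LMTK2 had 6.99 and 6.87 in Baz2B-KO and 6.89 and 6.69 in the control. LMTK3 had 5.29 and 5.45 in Baz2B-KO and 4.96 and 5.37 in the control, and AATK had 5.30 and 5.24 in Baz2B-KO and 5.14 and 5.03 in the control. STYK1 stood close to the limit, at 3.52 and 3.68 in Baz2B-KO and 3.66 and 3.80 in the control. None of the 4 passed. The receptors ROR1 and DDR2 stayed under the limit, ROR1 at 2.81 and 3.25 in Baz2B-KO and 2.85 and 3.24 in the control, and DDR2 at 2.88 and 2.70 in Baz2B-KO and 3.14 and 2.88 in the control.

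The genes around the receptors were read from lists of ligands, co-receptors, adaptors and inhibitors. Of 166 listed genes 130 had a probe set, 91 of them passed the filter with a platform name, and 5 more were tested through the supplementary table. Of the 91, 1 was lower in Baz2B-KO, 0 were higher and 90 did not pass, where 0.392% and 0.276% of all tested probe sets were lower and higher. At an unadjusted p under 0.05 there were 6 higher and 7 lower, beside the 9.85% of all tested probe sets named above. The median log2 fold change was -0.026. The gene past the test was ERRFI1, which encodes an inhibitor that binds the kinase domain of EGFR and its relatives. It had 4.92 and 4.80 in Baz2B-KO, against 5.63 and 5.77 in the control, a 1.79-fold difference (log2 fold change -0.84, 95% interval -1.11 to -0.57, adjusted p = 0.0277 from limma). The lines did not overlap, but ERRFI1 did not pass when any 1 of the arrays was left out (adjusted p = 0.118 to 0.224 from limma). It also did not pass with no intensity filter (0.0653) or over all retained probe sets, named or not (0.213, adjusted p from limma). The other 11 tested genes of its list of inhibitors, phosphatases and ubiquitin ligases did not pass.

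The ligands of PDGFRA and EPHA3 were looked at first. None of 11 tested ligand genes of the PDGF and VEGF receptor families passed. PDGFC, whose product binds PDGFRA, had 6.29 and 6.42 in Baz2B-KO and 6.93 and 6.51 in the control (log2 fold change -0.36, adjusted p = 0.508 from limma). CSF1, the ligand of CSF1R, had 5.96 and 5.84 in Baz2B-KO and 5.73 and 5.47 in the control. All 8 ephrin genes were tested and none passed. EFNA5, whose product is a ligand of EPHA3, had 7.75 and 7.85 in Baz2B-KO, against 7.51 and 7.52 in the control (log2 fold change 0.28, 95% interval 0.03 to 0.54, adjusted p = 0.460 from limma), and EFNB2 had a log2 fold change of -0.22.

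None of 4 ErbB ligand genes, 10 FGF genes and 10 other ligand genes tested passed. The ERBB4 ligand gene NRG4 had 4.13 in each Baz2B-KO array, against 4.47 and 4.77 in the control (log2 fold change -0.49, adjusted p = 0.259 from limma). The EGFR ligand gene TGFA, named only by the supplementary table, had a log2 fold change of 0.37, FGF3 had 0.35 and FGF22 had 0.33. ANGPT1, which encodes a ligand of the TEK receptor, had -0.38. Of 16 co-receptor genes none passed. GFRA1, which presents GDNF to RET, had 3.89 and 3.67 in Baz2B-KO, against 4.56 and 4.47 in the control (log2 fold change -0.74, adjusted p = 0.0633 from limma). Neither GFRA1 nor RET passed, and a relation between their changes was not tested. KL, which encodes klotho, the co-receptor for FGF23, had 4.52 and 4.57 in Baz2B-KO and 4.14 and 4.12 in the control (log2 fold change 0.41, adjusted p = 0.238 from limma). None of 20 adaptor and proximal signalling genes passed. DOK4, which encodes an adaptor, had 5.78 and 5.69 in Baz2B-KO, against 5.28 and 5.27 in the control. SRC, the tyrosine kinase gene, had 6.09 and 5.98 in Baz2B-KO, against 5.52 and 5.67 in the control. The log2 fold changes were 0.46 for DOK4 and 0.44 for SRC, with the Baz2B-KO arrays above the controls in both. CBLB, which encodes a ubiquitin ligase of activated receptors and is named only by the supplementary table, had -0.45 (adjusted p = 0.212 from limma). PTPRJ, of the same list and also named only by that table, had 0.49 (adjusted p = 0.221 from limma). None of the 5 genes tested through that table passed.

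**Figure D4:**
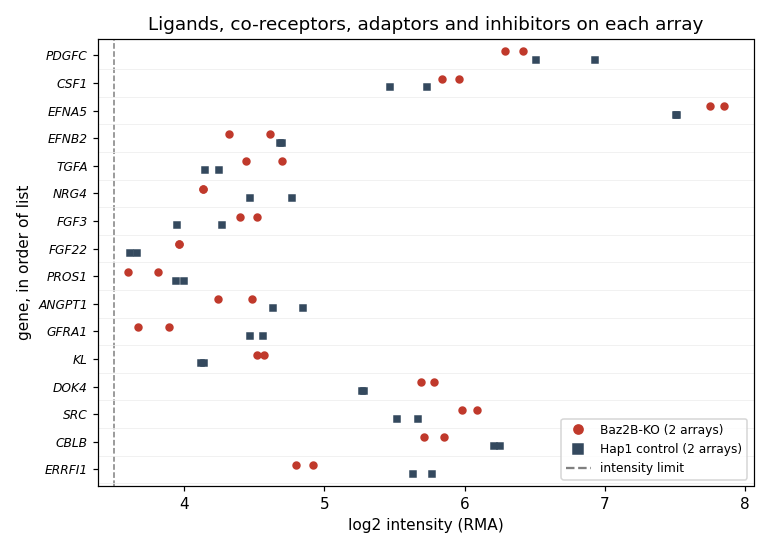
Log2 intensity (horizontal axis) on each array of the 16 ligand, co-receptor, adaptor and inhibitor genes (vertical axis) that passed the test or had the lowest 2 p-values of their list. Circles are the 2 Baz2B-KO arrays, squares the 2 Hap1 control arrays, and the dashed line is the limit of 3.5. The lines do not overlap for these genes, which were chosen by p, and ERRFI1, at 4.92 and 4.80 in Baz2B-KO and 5.63 and 5.77 in the control, was the gene past the test.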

How the data were processed

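Total RNA of 2 Baz2B-KO and 2 Hap1 control samples was labelled with biotin and hybridised to Affymetrix GeneChip Human Gene arrays. The authors used oligo and RMA to normalize the intensities, and the version of neither is stated in the sources read. What was deposited are log2 intensities of 53617 probe sets, before any filter. Precision is limited by the number of arrays.

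Names came from the platform annotation (16098 probe sets with 1 gene, 0 with several, 37519 unnamed). Probe sets above 3.5 in at least 2 arrays (27722, of which 11235 named) were kept as in the methods and fitted with limma 3.58.1 in R 4.3.3 (lmFit, eBayes, no covariates), Baz2B-KO minus control, with Benjamini-Hochberg adjustment at 0.05 over the named ones. A gene named only by the study's supplementary table, held for its 1999 rows of lowest p, shared the prior of that fit and was adjusted as an addition of 1 probe set. The fit was tested on simulated data. The fold changes and p-values of that table were not used.

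Genes given with values were members past the test or at an unadjusted p under 0.05, the tested member with the largest change of each family, members above 6 in both controls, and listed pathway genes past the test or with the lowest 2 p-values of a list. Other members, and PTPRJ, were named after their values were seen. Members and lists were chosen with earlier results of these data known. Promoters came from RefSeq, and figures were drawn with matplotlib 3.10.9. Protein features were planned and not analysed here. Alternatives were other intensity filters, adjustment over named and unnamed probe sets, eBayes with a trend or in its robust form, the replicate block, median centring, cyclic loess, other choices among the probe sets of a gene and each array left out.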

Additional observations from a re-analysis of the deposited data

How the results depend on the processing

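Across 15 other settings the log2 fold change was -2.83 to -2.71 for PDGFRA and -2.43 to -2.42 for EPHA3. Except over all retained probe sets, PDGFRA was adjusted with EPHA3 and EPHA3 without PDGFRA, so their adjusted p-values are not compared. PDGFRA and EPHA3 passed the test in each of those settings that kept all 4 arrays. KIT passed in 0, with a log2 fold change of -0.65 to -0.48 (adjusted p = 0.0972 to 0.614 from limma). The count of receptors lower was 1 in the other settings and 0 to 1 with 1 array left out, and 0 were higher in every setting. The count of all probe sets past the test, 75, was 41 with no intensity filter, 26 with all retained probe sets and 38 with the replicate block, 102 with median centring, 64 to 80 in the other settings of 4 arrays, and 0 to 42 with 1 array left out, being 0 without either control array (935 and 1419 at an unadjusted p under 0.05 from limma). A fit of 3 arrays has 1 array in a line, which is assumed to vary like the other line. The count of pathway genes past the test, 1, was 0 with no intensity filter, with all retained probe sets and with the replicate block, 0 with any 1 array left out, and 2 with median centring, where GFRA1 joined ERRFI1 (adjusted p = 0.0391 from limma). The cause of these shifts was not tested. The replicate numbers of the titles do not pair the arrays by any label, and the replicate 1 minus 2 differences of the lines correlated at 0.158, so the block is given only here, and it left PDGFRA and EPHA3 past the test and ERRFI1 short of it (adjusted p = 0.0808 from limma).

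Of 606 values of 41 named genes in other settings, 8 changed sign, for 4 uncalled genes near 0. DDR1 was 0.0044 with median centring, 0.0033 with cyclic loess, 0.0037 with the mean of its probe sets, and -0.10 to 0.09 with 1 array left out. With 1 array left out, FGFR4 ranged from -0.40 to 0.08, FGFR1 from -0.12 to 0.07 and MET from -0.06 to 0.26. No permutation of 2 arrays against 2 gives a two-sided p below 0.333.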
